A study of Homo sapiens with 16 samples.

Results

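Activated B cells secrete chemokines that draw T cells and other leukocytes to them, and 9 genes for such ligands were followed here in a human B cell line at 2 levels of the oncoprotein MYC, with and without an inhibitor of N-myristoylation. The members were chosen by name as chemokine ligands of activated B cells: CCL3, CCL4, CCL5, CCL17, CCL22, CXCL9, CXCL10, CXCL11 and CXCL16. They make up 9 of the 58051 gene identifiers measured, and 7 of them reached the limit for testing, a mean over the 16 libraries of 10 normalized counts, as did 13765 genes in all. CXCL11 and CXCL16 lay under that limit and are described with exact tests.

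The cells were P493-6, a single immortalised line of human B cells that carries a MYC transgene shut down by doxycycline and a form of the Epstein-Barr virus factor EBNA2 that works only with oestrogen. High MYC cells grew in ordinary medium. Medium MYC cells had 0.1 µg/mL doxycycline and 1 µM β-estradiol added 24 h ahead of treatment, so that MYC level, doxycycline and estradiol cannot be told apart. Each kind of cell was then kept for 24 h with 100 nM IMP1088, which blocks the N-myristoyltransferases NMT1 and NMT2, or with its vehicle DMSO, giving 4 groups of 4 libraries. The labels do not say whether the libraries came from separate cultures, and p-values therefore measure the spread between these libraries, which may be technical.

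Chemokines are small secreted proteins that bind G protein-coupled receptors on other leukocytes and direct their movement. In B cells, signals from the B cell receptor, CD40 and Epstein-Barr virus proteins reach many chemokine genes through NF-kappaB, and interferons reach CXCL9, CXCL10 and CXCL11 through STAT and IRF factors. CCL17 and CCL22 attract T cells that carry CCR4, CXCL9 to CXCL11 attract those that carry CXCR3, and CCL3 and CCL5 attract cells that carry CCR1.

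Library depth ran from 8755296 to 13858534 reads. All values are the deposited normalized counts, which are reads divided by a factor for each library. MYC averaged 31649 ± 2130 normalized counts in the high MYC controls and 959 ± 48.7 in the medium MYC controls (SD, n = 4), and it was 1.502-fold and 1.44-fold higher with IMP1088 than with DMSO at high and medium MYC (limma adjusted p = 7.2e-10 and 2.7e-09). All 8 B cell markers averaged at least 10 normalized counts, although CR2 had no read at high MYC. Of 8 markers of T or NK cells 3 averaged at least 10 (CD3E 41.2, CD3G 19.9, NKG7 10.7) and 4 under 1. Of 8 markers of monocytes or macrophages 3 averaged at least 10 (ITGAM 134.6, LYZ 53.4, CD68 48.2) and 3 under 1. MARCO was at 0 in every library. Summed marker levels moved with the additives: from high to medium MYC controls those of monocytes or macrophages went from 139.1-162 to 360.4-392 normalized counts, those of T or NK cells from 65.1-74.9 to 88.7-118, those of plasma cells from 8446-9984 to 1248-1360 and those of fibroblasts from 5.59-10.5 to 156-178, the last nearly all COL1A1 with DCN at 0. Their part in the chemokine results was not tested. In bulk RNA, more cells that make a transcript and more RNA for each cell cannot be told apart.

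The promoters of the CXCR3 ligands and of CCL22 are shown first, because factors such as NF-kappaB, STAT and IRF act through promoter DNA. RefSeq promoter windows on GRCh38.p14, each 300 bases long (250 before the gene start and 50 after it), matched 5 of the 9 members. The 250 bases before the start are printed 5′ to 3′ on the strand of the gene, and capitals mark matches, on either strand, to the NF-kappaB consensus, the core of the interferon-stimulated response element (ISRE) and the STAT-bound element GAS. The first 3 belong to the CXCR3 ligands, which lie side by side on the minus strand of chromosome 4, at chr4:76007510-76007759 for CXCL9, chr4:76023498-76023747 for CXCL10 and chr4:76036071-76036320 for CXCL11. The fourth is that of CCL22, the member with the highest level, at chr16:57358533-57358782 on the plus strand.
CXCL9: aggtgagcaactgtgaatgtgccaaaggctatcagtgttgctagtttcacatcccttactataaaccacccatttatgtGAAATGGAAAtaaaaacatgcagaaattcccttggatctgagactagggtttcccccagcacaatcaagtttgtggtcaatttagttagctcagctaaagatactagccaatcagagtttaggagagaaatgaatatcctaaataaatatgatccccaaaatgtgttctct
CXCL10: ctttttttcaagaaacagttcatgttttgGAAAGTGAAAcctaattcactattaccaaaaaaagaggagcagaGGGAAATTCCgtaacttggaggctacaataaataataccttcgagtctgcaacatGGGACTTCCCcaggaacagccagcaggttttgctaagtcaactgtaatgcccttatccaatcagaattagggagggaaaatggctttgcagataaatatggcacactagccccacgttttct
CXCL11: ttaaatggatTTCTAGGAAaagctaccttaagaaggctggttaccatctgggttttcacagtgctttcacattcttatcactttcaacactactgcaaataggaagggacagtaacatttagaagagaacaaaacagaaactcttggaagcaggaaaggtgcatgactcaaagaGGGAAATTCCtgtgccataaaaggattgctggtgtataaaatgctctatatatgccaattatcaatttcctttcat
CCL22: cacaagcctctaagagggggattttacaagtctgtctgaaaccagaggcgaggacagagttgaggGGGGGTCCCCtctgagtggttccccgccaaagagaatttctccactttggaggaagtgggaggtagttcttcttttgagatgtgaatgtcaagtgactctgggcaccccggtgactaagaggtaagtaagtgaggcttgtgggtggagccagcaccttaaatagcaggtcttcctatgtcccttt

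The NF-kappaB consensus matched in CXCL10, CXCL11 and CCL22 (first base at position -185 from the start) and in 5.91% of all 35116 windows. CXCL10 held it at 2 places, at positions -177 and -122. The ISRE core, a pair of GAAA tetramers with any 2 bases between them, matched in CXCL9 and CXCL10 and in 3.57% of windows. The GAS motif, TTCNNNGAA, matched in CXCL11 before and after the start and in 7.66% of windows. The AP-1 motif TGANTCA also matched in CXCL11 and in 7.71% of windows, and TATAAA matched in CCL3, CXCL9 and CXCL11 and in 11.5%. The letters GTGGGAA, bound by RBPJ, the DNA partner of EBNA2 and NOTCH, and CACGTG, the E-box bound by MYC, were in none of the 5 windows and in 6.25% and 7.26% of all windows. No match overlapped another. The RefSeq start of CXCL11 lies 5345 bases inside the outermost start of GENCODE release 29, and a match describes letters only.

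**Figure D1:**
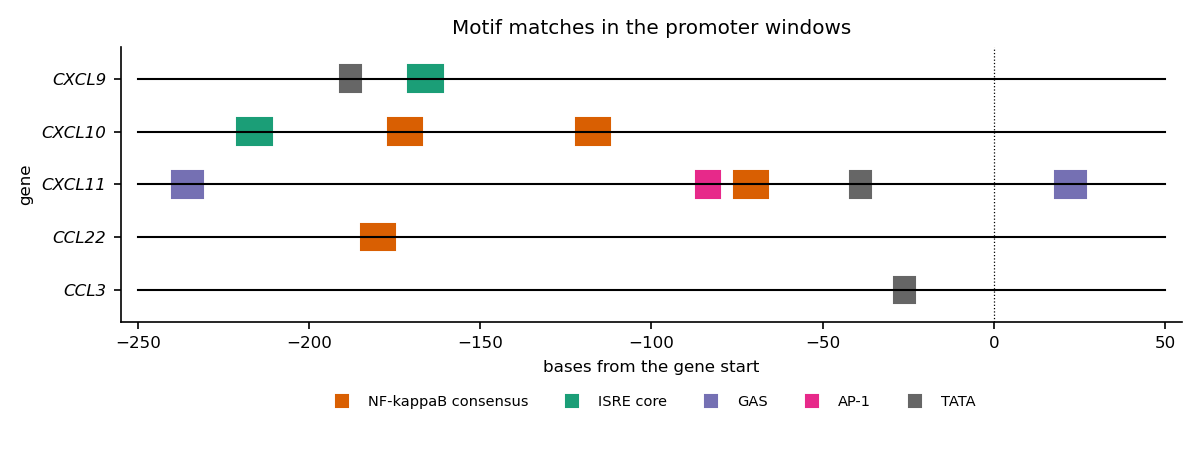
Motif matches (coloured boxes) in the RefSeq promoter windows of the 5 members that had one, by distance in bases from the gene start (dotted line). CXCL10 holds an ISRE core at -221 and NF-kappaB consensus matches at -177 and -122, and CCL22 holds 1 NF-kappaB consensus match at -185.

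The mRNA of 8 of the 9 members was higher in every medium MYC library than in any high MYC library of the same treatment. CXCL16 was near the detection limit throughout. The share of all tested genes without overlap between MYC levels is not given here, so the lack of overlap is a description only. Between the controls the differences were at least 3.51-fold for CXCL11, whose high MYC libraries had no read, and for the others ran from 8.49-fold for CCL4 to 66.6-fold for CCL22 and to at least 141.5-fold for CXCL9. All 7 tested members were higher at medium than at high MYC in DMSO (limma adjusted p under 0.05), against 38.9% of all tested genes called higher, and all 7 were higher in IMP1088, against 39.7%. CCL5, CCL17, CXCL9 and CXCL10 reached the limit for testing only through the medium MYC libraries and had to differ, so that this count and their differences between MYC levels are descriptions, given with no p. The plot of the values by library shows that the MYC levels did not overlap for any member but CXCL16.

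**Figure D2:**
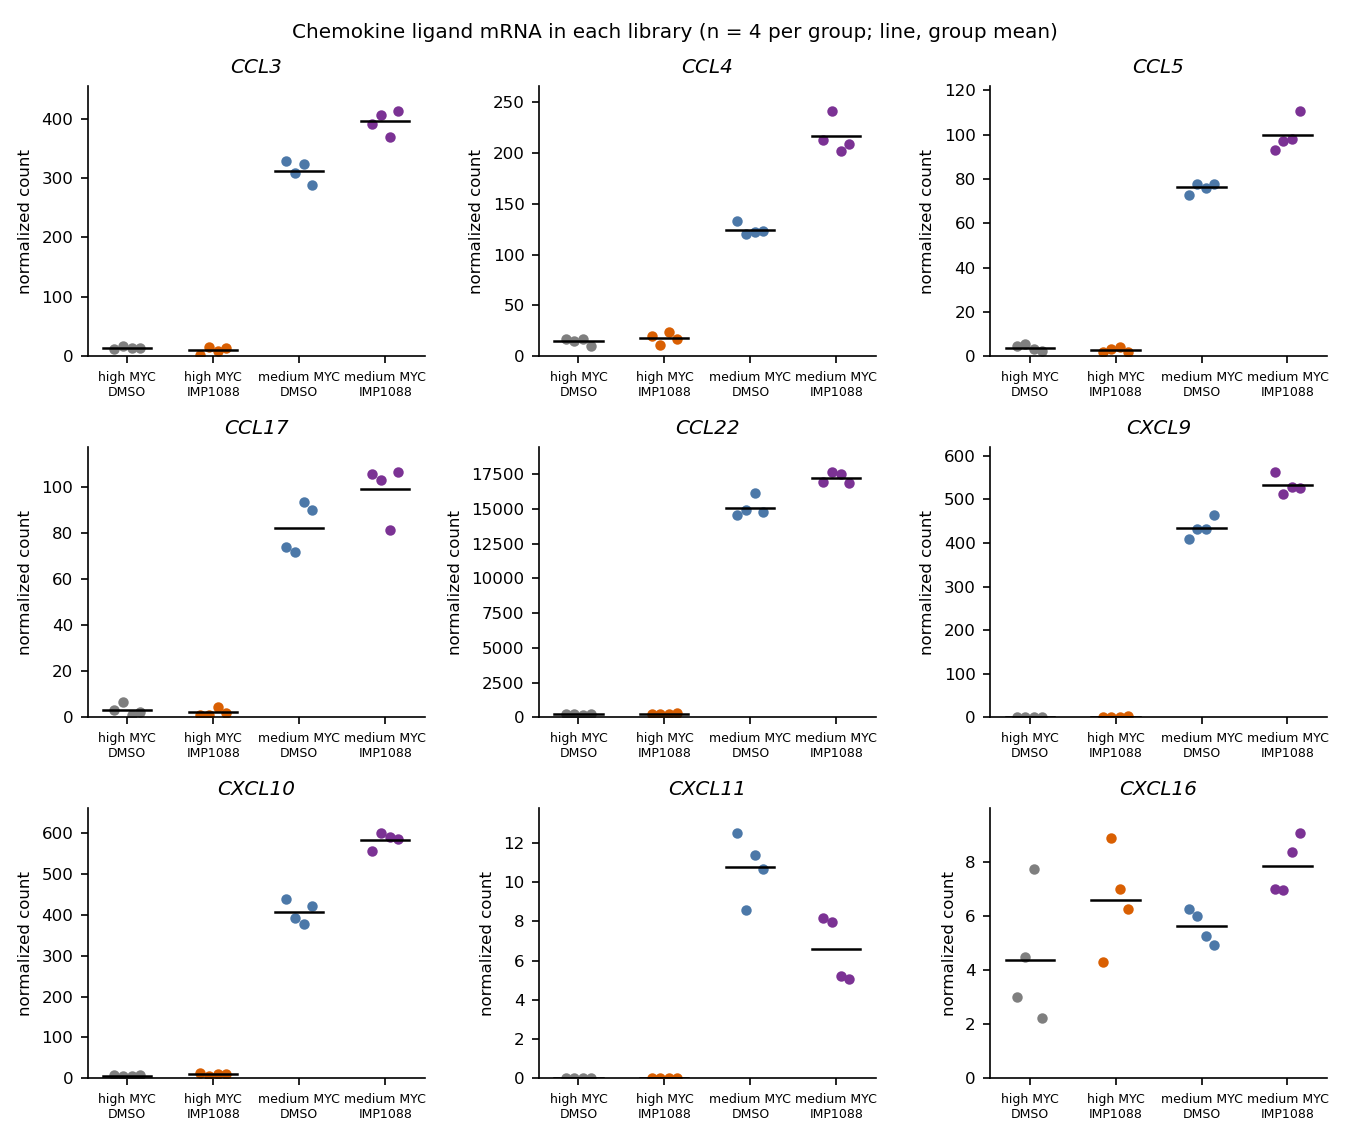
Normalized counts (vertical axes, linear, from 0) of the 9 chemokine ligands in the 4 libraries of each group (points), with group means (lines). CCL22 spans 196 to 17702 normalized counts, CXCL11 had no read at high MYC, and CXCL16 overlaps between MYC levels.

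CXCL9, CXCL10 and CXCL11 are the ligands of CXCR3, the receptor of effector T cells and NK cells. CXCL9 (ENSG00000138755, chr4:76001275-76007488, minus strand, GRCh38) had normalized counts of 0.753, 0, 1.104 and 0 in the 4 high MYC controls and of 0, 0, 0 and 2.08 in the high MYC libraries with IMP1088. At medium MYC it had 409.9, 433, 432 and 464 in DMSO and 564, 513, 527 and 526 in IMP1088. The high MYC groups stood at the detection floor of 3 reads in each library, and the medium MYC groups did not overlap, the inhibitor libraries being higher. Against the floor, CXCL9 was at least 141.5-fold higher at medium MYC in DMSO and at least 173-fold higher in IMP1088. Between IMP1088 and DMSO at medium MYC the ratio of means was 1.22, with a log2 change of 0.29 and a 95% interval of -0.34 to 0.92 (limma adjusted p = 0.53). This fit used 1 spread for all 16 libraries, those at the floor included. With only the medium MYC libraries in the fit the SE went from 0.304 to 0.053. The limma adjusted p was then 0.00061, and CXCL9 was called higher.

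CXCL10 (ENSG00000169245, chr4:76021117-76023497, minus strand) had 7.53, 4.49, 5.52 and 8.94 normalized counts in the high MYC controls and 11.8, 5.55, 10.5 and 11.4 with IMP1088. At medium MYC the values were 438, 392, 377 and 422 in DMSO and 557, 601, 590.1 and 585 in IMP1088. The inhibitor libraries lay above all controls at medium MYC and overlapped them at high MYC. CXCL10 was 61.5-fold higher at medium than at high MYC in DMSO (log2 change 5.78) and 59.4-fold higher in IMP1088. It rose 1.43-fold with IMP1088 at medium MYC (log2 0.52 ± 0.19 SE, limma adjusted p = 0.0473). This call was lost in each of the 8 fits without 1 of the compared libraries (adjusted p 0.064 to 0.106), while edgeR and DESeq2 on the reads called it. With only the medium MYC libraries in the fit the limma adjusted p was 3.9e-06. At high MYC the log2 change was 0.50 ± 0.19 SE (limma adjusted p = 0.0574), which passed the threshold without DMSO replicate 1 (0.0479), DMSO replicate 4 (0.0168) or IMP1088 replicate 2 (0.00182).

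CXCL11 (ENSG00000169248, chr4:76033682-76041415, minus strand), the CXCR3 ligand of highest affinity, had no read in any of the 8 high MYC libraries. At medium MYC it had 12.5, 8.56, 11.4 and 10.7 normalized counts in DMSO and 8.16, 7.95, 5.22 and 5.04 in IMP1088, from 5 to 13 reads a library. Every inhibitor library was below every control, the opposite order to CXCL9 and CXCL10. Against the floor, CXCL11 was at least 3.51-fold higher at medium MYC in DMSO and at least 2.15-fold higher in IMP1088. With IMP1088 at medium MYC the ratio of means was 0.611 (exact permutation test, two-sided, p = 0.0286, the smallest that 4 against 4 libraries allow; 0.0571 adjusted over the 8 tests of CXCL11 and CXCL16). The exact permutation p was 0.0857 without DMSO replicate 1 and 0.0571 without DMSO replicate 3 or 4 or IMP1088 replicate 3 or 4.

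The balance among the CXCR3 ligands was described within libraries. On the scale of log2(normalized count + 1), the difference between IMP1088 and DMSO at medium MYC was -1.17 for CXCL11 relative to CXCL10 and -0.94 for CXCL11 relative to CXCL9. For CXCL9 relative to CXCL10 it was -0.23. These differences restate the values above and are a description.

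CCL22 and CCL17 are the ligands of CCR4, the receptor of type 2 helper and regulatory T cells, and their genes lie near each other on chromosome 16. CCL22 (ENSG00000102962, chr16:57358772-57366190, plus strand) had 252, 235, 196 and 225 normalized counts in the high MYC controls and 216, 232, 248 and 289 with IMP1088. The medium MYC libraries had 14586, 14903, 16179.7 and 14766 in DMSO and 16968, 17702, 17504 and 16872 in IMP1088. The medium MYC groups did not overlap, IMP1088 being higher, and the high MYC groups did. CCL22 was 66.6-fold higher at medium than at high MYC in DMSO (log2 6.06 ± 0.07 SE, limma adjusted p = 1.5e-24) and 70.1-fold higher in IMP1088 (log2 6.13). Only 0.363% of tested genes had a larger log2 change in DMSO. With IMP1088 it rose 1.14-fold at medium MYC (log2 0.19 ± 0.07 SE, limma adjusted p = 0.0470), a call lost in 7 of the 8 fits without 1 compared library (adjusted p 0.067 to 0.109) and held without DMSO replicate 3 (0.0283). With only the medium MYC libraries in the fit the limma adjusted p was 0.00057. At high MYC the log2 change was 0.11, with a 95% interval of -0.03 to 0.26.

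CCL17 (ENSG00000102970, chr16:57404767-57416062, plus strand) had 3.01, 6.74, 1.104 and 2.24 normalized counts in the high MYC controls and 1.08, 1.11, 4.36 and 2.08 with IMP1088, from 1 to 6 reads a library. At medium MYC the values were 74.1, 71.9, 93.6 and 90.3 in DMSO and 106, 103, 81.5 and 107 in IMP1088, and IMP1088 replicate 3 fell among the controls. CCL17 was 25.2-fold higher at medium than at high MYC in DMSO (log2 4.44) and 46.1-fold higher in IMP1088. For IMP1088 against DMSO the 95% interval of the log2 change was -0.42 to 0.96 at medium MYC and -1.08 to 0.30 at high MYC, and neither sign was called. With only the medium MYC libraries in the fit the adjusted p was 0.132.

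CCL3, CCL4 and CCL5 attract monocytes, T cells and NK cells. CCL3 (ENSG00000277632, chr17:36088256-36090169, minus strand) had 12.1, 16.8, 14.3 and 14.5 normalized counts in the high MYC controls and 2.15, 15.5, 9.60 and 14.6 with IMP1088, where replicate 1 held 2 reads. In the medium MYC libraries CCL3 had 329, 308, 323 and 288 in DMSO and 391, 406, 369.7 and 413 in IMP1088, again without overlap. CCL3 was 21.6-fold higher at medium MYC in DMSO (log2 4.35 ± 0.32 SE, limma adjusted p = 4.8e-11) and 37.8-fold higher in IMP1088. With IMP1088 at medium MYC the ratio of means was 1.27 (log2 0.34 ± 0.32 SE, limma adjusted p = 0.48, and 0.00052 with only the medium MYC libraries in the fit). At high MYC the log2 change was -0.67 ± 0.32 SE (limma adjusted p = 0.13). It was -0.14 without IMP1088 replicate 1 (limma adjusted p = 0.55) and passed the threshold without IMP1088 replicate 2 (-0.93, 0.0391) or replicate 4 (-0.90, 0.0489). On the opposite strand the antisense gene CCL3-AS1 covers 74.6% of the annotated exon bases of CCL3, with a mean of 0.807 normalized counts.

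CCL4 (ENSG00000275302, chr17:36103590-36105621, plus strand) had 17.3, 14.6, 16.6 and 10.1 normalized counts in the high MYC controls and 20.4, 11.1, 23.6 and 16.6 with IMP1088. At medium MYC it had 132, 119.9, 122 and 123 in DMSO and 212, 241, 202 and 209 in IMP1088, the largest ratio of means with IMP1088 among the tested members, and no values overlapped. CCL4 was 8.49-fold higher at medium than at high MYC in DMSO (log2 3.03 ± 0.19 SE, limma adjusted p = 2.1e-12) and 12.0-fold higher in IMP1088. It rose 1.74-fold with IMP1088 at medium MYC (log2 0.79 ± 0.19 SE, limma adjusted p = 0.0028), and the adjusted p stayed between 0.0059 and 0.0127 without any 1 of the compared libraries. At high MYC the groups overlapped, with a log2 change of 0.25 and a 95% interval of -0.13 to 0.64.

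CCL5 (ENSG00000271503, chr17:35871491-35880793, minus strand) had 4.52, 5.62, 3.31 and 2.24 normalized counts in the high MYC controls and 2.15, 3.33, 4.36 and 2.08 with IMP1088, from 2 to 6 reads a library. In the medium MYC libraries it had 73.0, 77.9, 76.1 and 77.96 in DMSO and 93.2, 97.4, 98.2 and 111 in IMP1088, without overlap. CCL5 was 19.5-fold higher at medium MYC in DMSO (log2 4.02) and 33.5-fold higher in IMP1088. The ratio of means between IMP1088 and DMSO at medium MYC was 1.31 (log2 0.38 ± 0.23 SE, limma adjusted p = 0.25, and 0.00996 with only the medium MYC libraries in the fit).

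CCL3 and CCL4 have near-identical copies, CCL3L3 (ENSG00000276085, named CCL3L1 in GENCODE release 29) and CCL4L2 (ENSG00000276070), in the same stretch of chromosome 17. Of the 50-base windows of the coding transcripts, 9.88% of those of CCL3 also occur in CCL3L3 and 20.1% of those of CCL4 in CCL4L2. Reads from such windows can be divided between gene and copy, so the values of all 4 genes are uncertain. The size of that uncertainty was not measured, and these percentages do not bound it. The promoters of CCL3 (chr17:36090144-36090393) and CCL3L3 (chr17:36196759-36197008), both on the minus strand, are printed because the difference between MYC levels in the controls was unequal in size for the 2 genes. Their windows are 90.8% identical, with 16 mismatched and 12 gapped bases, and no motif marked with capitals above occurs in either.
CCL3: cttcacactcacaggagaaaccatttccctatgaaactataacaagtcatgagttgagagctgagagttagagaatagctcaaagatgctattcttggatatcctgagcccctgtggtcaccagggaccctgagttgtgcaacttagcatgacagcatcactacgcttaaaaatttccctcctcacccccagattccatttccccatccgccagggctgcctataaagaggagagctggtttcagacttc
CCL3L3: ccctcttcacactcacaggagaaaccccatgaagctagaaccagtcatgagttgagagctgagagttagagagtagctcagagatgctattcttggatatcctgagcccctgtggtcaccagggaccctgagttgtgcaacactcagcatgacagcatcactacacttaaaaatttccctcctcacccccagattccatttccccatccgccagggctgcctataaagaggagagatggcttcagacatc

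CCL3L3 had 53.5, 51.7, 48.6 and 44.7 normalized counts in the high MYC controls and 131, 174, 153 and 158 in the medium MYC controls, a 3.11-fold difference. CCL4L2 had 50.5, 49.4, 54.1 and 61.5 and 72.0, 81.3, 80.5 and 70.6 in the same groups, a 1.41-fold difference. The copies thus held most of the summed reads at high MYC and the named genes at medium MYC. CCL3 made up 22.6% ± 2.9 of CCL3 plus CCL3L3 reads in the high MYC controls and 66.9% ± 3.5 in the medium MYC controls (SD, n = 4). CCL4 made up 21.5% ± 5.1 and 62.0% ± 2.5 of CCL4 plus CCL4L2. No library of one MYC level reached the other, for either pair and either treatment (exact permutation p = 0.0286 each, 0.0571 adjusted over 8 tests). With IMP1088 the shares differed from the controls by 0.71 and 2.76 percentage points at medium MYC and by -2.72 and 2.78 at high MYC (exact permutation p from 0.143 to 0.8).

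**Figure D3:**
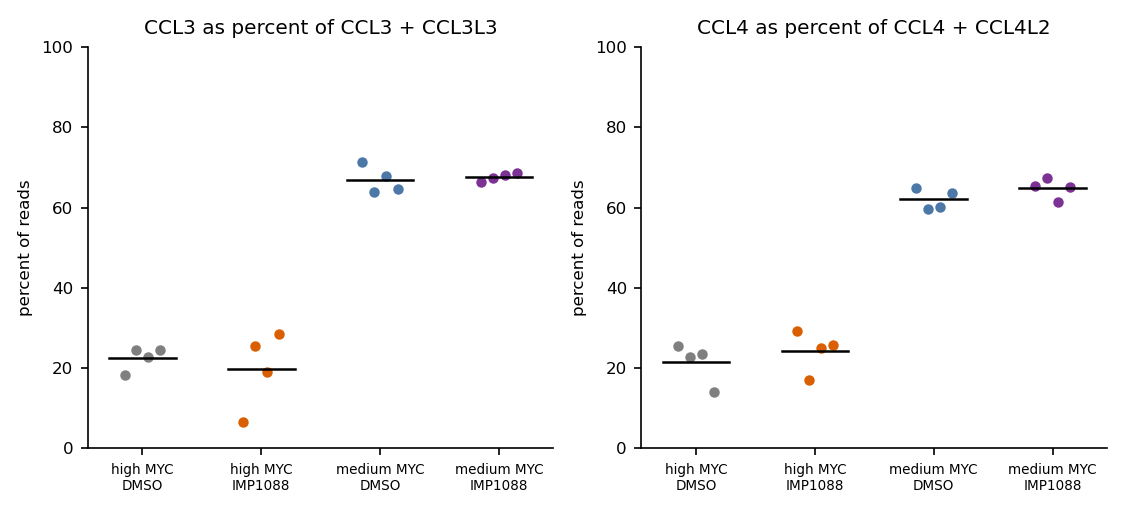
Reads of CCL3 (left) and CCL4 (right) as a percentage of the gene and its near-identical copy, in the 4 libraries of each group (points) with group means (lines). Both shares lie under 30% in all high MYC libraries (6.45% to 29.2%) and over 59% in all medium MYC libraries (59.6% to 71.4%).

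CXCL16 (ENSG00000161921, chr17:4733526-4739922, minus strand), the ligand of CXCR6 and a membrane-bound chemokine and scavenger receptor, stayed between 2 and 9 reads a library. It had 3.01, 4.49, 7.73 and 2.24 normalized counts in the high MYC controls and 4.30, 8.87, 6.98 and 6.24 with IMP1088. The medium MYC libraries held 6.26, 5.99, 5.25 and 4.92 in DMSO and 6.99, 6.95, 8.36 and 9.07 in IMP1088. The MYC levels overlapped and no difference between them was detectable (exact permutation p = 0.286 in DMSO and 0.257 in IMP1088), although without high MYC DMSO replicate 3 that in DMSO had p = 0.0286. At medium MYC every inhibitor library lay above every control, with a ratio of means of 1.40 (exact permutation p = 0.0286, adjusted 0.0571). Of its exons, 85 bases overlap those of MED11 on the opposite strand, which averaged 113 normalized counts.

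Per kb of exon of the protein-coding transcripts, the medium MYC controls had the order CCL22 (5158 ± 248 normalized counts per kb, SD, n = 4), CCL3 (401 ± 23.3), CXCL10 (346 ± 23.5), CXCL9 (159 ± 8.18), CCL4 (137 ± 6.22), CCL17 (133 ± 17.9), CCL5 (50.4 ± 1.53), CXCL11 (5.65 ± 0.87) and CXCL16 (2.11 ± 0.24). CCL22 stood above the next member in every library. The libraries of CCL3 and CXCL10 overlapped, as did those of CCL4 and CCL17, and the other neighbours in that order did not. With IMP1088 at medium MYC, CCL4 reached 239 ± 19.4 per kb and stood above CXCL9 at 194 ± 8.01, the reverse of their order in the controls. In the high MYC controls CCL22 was again first at 77.4 ± 7.89, followed by CCL3 at 18.6 ± 2.52 and CCL4 at 16.2 ± 3.60, which overlapped, while CXCL10 at 5.63 ± 1.70 and CCL17 at 5.28 ± 3.94 overlapped as well. The place of CCL3 and CCL4 depends on the length used. With all annotated exon bases, an alternative chosen after seeing the data, CCL3 had 209 ± 12.1 per kb in the medium MYC controls, below CXCL10, and CCL4 had 61.2 ± 2.77, below CCL17. On that length CCL4 stood below CXCL9 with IMP1088 as well, at 106 ± 8.62.

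**Figure D4:**
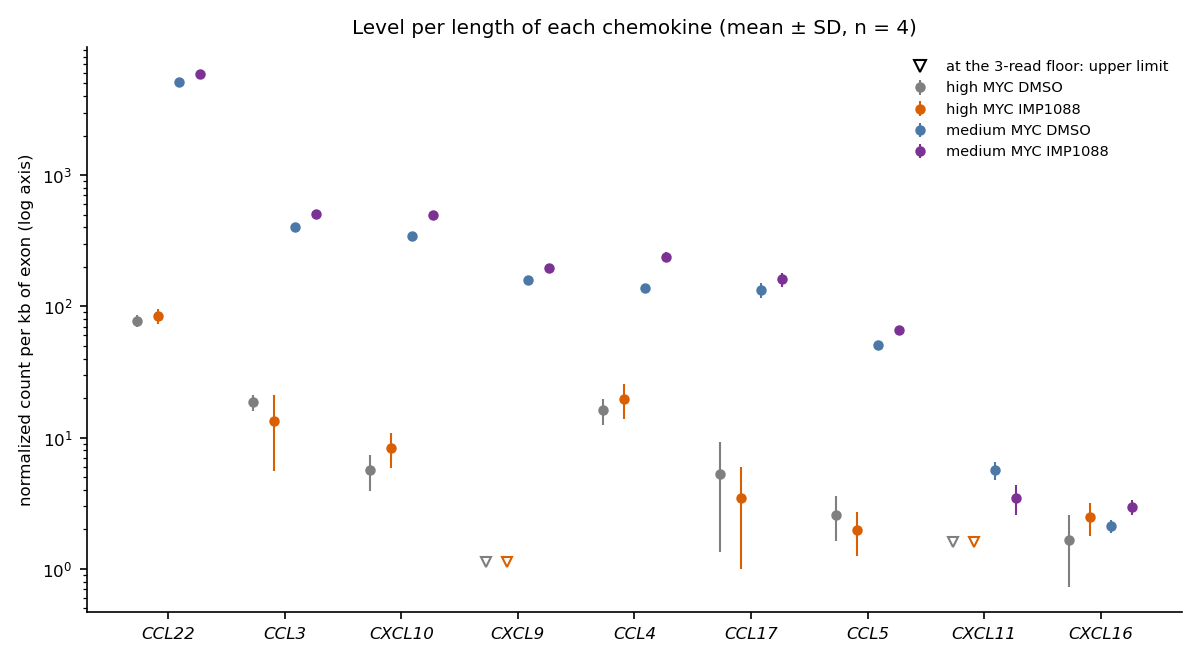
Normalized count per kb of exon (log axis) of each chemokine in the 4 groups, as means with SD over 4 libraries, in the order of the medium MYC controls. Open triangles mark groups at the floor of 3 reads, drawn at that limit: CXCL9 and CXCL11 at high MYC.

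The response to IMP1088 itself was small beside the difference between MYC levels. At medium MYC 3 of the 7 tested members rose (CCL4, CCL22 and CXCL10), against 11.7% of all tested genes called higher, and none fell. The median log2 change of the 7 was 0.34, and that of all tested genes was -0.01. edgeR called 6 and DESeq2 5 of the 7 on the recovered reads. The limma calls used 1 spread per gene that includes the high MYC libraries. With only the medium MYC libraries in the fit limma called 6 of the 7, and 1612 genes higher in all. For 6 of the 7 every inhibitor value lay above every control value, which held for 12.4% of tested genes, CCL17 being the exception. In the same libraries the summed markers of monocytes or macrophages went from 360.4-392 to 291-337 normalized counts. Of their 3 tested genes 1 was called higher and 1 lower. Those of T or NK cells went from 88.7-118 to 62.9-75.5, with 2 of 3 tested genes called lower. Those of B cells went from 61677-65582 to 55645-57305, with 5 of 8 genes called lower. The summed markers of plasma cells went from 1248-1360 to 2114-2301, with 3 of 4 genes called higher, and those of fibroblasts from 156-178 to 193-221. Their part in the response was not tested.

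At high MYC 0 of the 7 passed the threshold in limma, edgeR or DESeq2, against 26.8% of tested genes called in either direction, and 2 had an unadjusted limma p under 0.05 (CCL3 and CXCL10). Of the genes called there, 1442 were higher and 2247 lower as deposited, and 1727 higher and 1770 lower after quantile normalization. The median log2 change of the members was -0.07 and that of all tested genes -0.02. The low counts limit this comparison: apart from CCL22, no member had more than 27 reads in a high MYC library.

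The difference between the responses at the 2 MYC levels was called for 0 of the 7 members by limma, edgeR and DESeq2, against 8.63% of tested genes, and 1 had an unadjusted limma p under 0.05. That was CCL3, with a log2 difference of 1.01 and a 95% interval of 0.07 to 1.96 (limma adjusted p = 0.19). For CCL22 the interval was narrow, from -0.13 to 0.28 on the log2 scale, and for CXCL10 it was -0.53 to 0.58. The copies gave calls: CCL3L3 fell at high MYC (log2 -0.37 ± 0.12 SE, limma adjusted p = 0.0257), and its response at medium MYC was higher by 0.67 (adjusted p = 0.0136). CCL4L2 rose at medium MYC (log2 0.62 ± 0.12 SE, limma adjusted p = 6.9e-04), and its response there was higher by 0.58 than at high MYC (adjusted p = 0.0417). With each copy summed with its gene, an alternative chosen after seeing the data, the difference in response was 0.74 for CCL3 (limma adjusted p = 0.0066) and 0.64 for CCL4 (0.0046). The summed CCL3 rows also fell at high MYC (log2 -0.41, limma adjusted p = 0.0130) and rose at medium MYC (0.32, 0.0480).

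**Figure D5:**
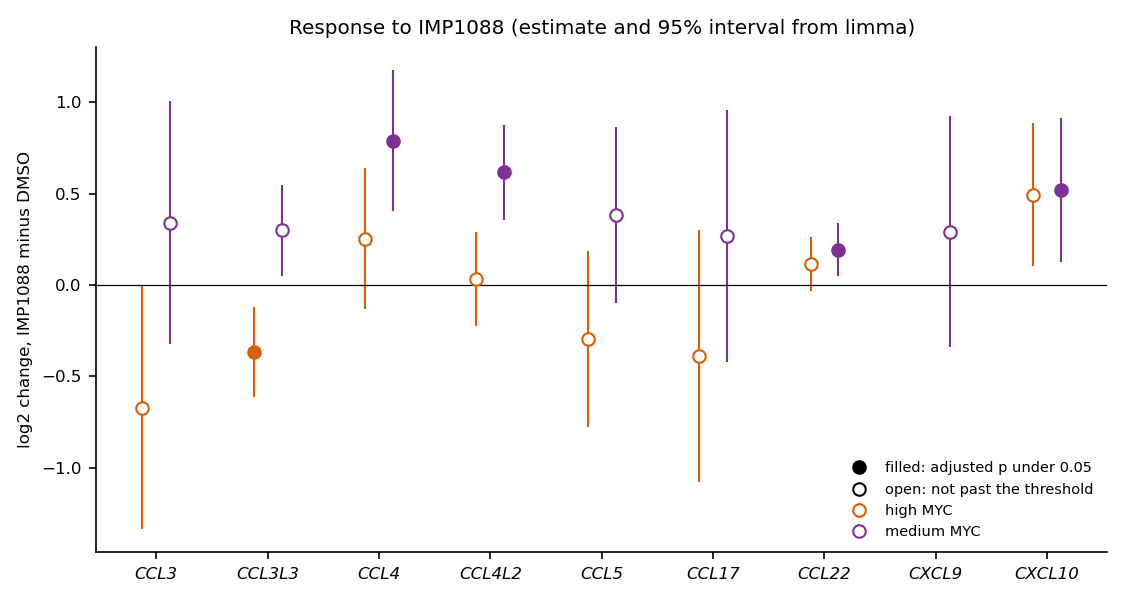
Log2 change with IMP1088 (vertical axis, IMP1088 minus DMSO) for tested members and the copies CCL3L3 and CCL4L2 at high MYC (orange) and medium MYC (purple), with 95% intervals from limma over 16 libraries. Each interval uses 1 spread per gene shared by the 4 groups. Filled points passed the threshold: CCL4 (0.79), CCL4L2 (0.62), CCL22 (0.19) and CXCL10 (0.52) at medium MYC and CCL3L3 (-0.37) at high MYC; CXCL9 at high MYC is at the floor and left out.

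Of 9 receptors of these ligands, 3 were tested. CXCR3 and ACKR3 reached the limit only through the medium MYC libraries and had to be higher there, and CCR1 was higher at medium MYC as well (log2 1.43 in DMSO and 1.59 in IMP1088). CCR1, a receptor of CCL3 and CCL5, fell with IMP1088 at both MYC levels, from 43.1 ± 6.33 to 12.7 ± 5.10 normalized counts at high MYC (log2 -1.76 ± 0.21 SE, limma adjusted p = 2.0e-06) and from 117 ± 5.13 to 38.2 ± 6.37 at medium MYC (log2 -1.60, limma adjusted p = 6.0e-06). CXCR3, the receptor of CXCL9, CXCL10 and CXCL11, fell at medium MYC from 32.2 ± 6.66 to 15.995 ± 3.92 (log2 -0.97 ± 0.31 SE, limma adjusted p = 0.0249). ACKR3, a scavenging receptor that takes up CXCL11 and CXCL12, averaged 0.377 normalized counts in the high MYC controls and 360.4 ± 36.7 in the medium MYC controls. With IMP1088 at medium MYC it averaged 489.5 ± 23.6 (limma adjusted p = 0.19).

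Of 35 other chemokine ligands only CCL2, CCL25 and CX3CL1 reached the limit for testing, each of them only through the medium MYC libraries, so that they had to be higher there. CCL2, a ligand of CCR2 that attracts monocytes, had no read at high MYC and averaged 89.3 ± 15.5 normalized counts in the medium MYC controls. It fell to 54.998 ± 8.10 with IMP1088 (log2 -0.69 ± 0.25 SE, limma adjusted p = 0.0492). CCL25, a ligand of CCR9, averaged 31.1 ± 5.24 and 17.2 ± 8.22 in those groups (limma adjusted p = 0.067). CX3CL1, the ligand of CX3CR1, lies 6268 bases from CCL22 and averaged 18.6 ± 1.01 and 25.1 ± 5.61 (limma adjusted p = 0.49).

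Genes of the pathways that reach chemokine promoters were counted from lists. Of 24 tested genes of the interferon and JAK-STAT path, 24 were higher at medium than at high MYC in DMSO (38.9% of all tested genes), SOCS3 and GBP4 having reached the limit only through medium MYC, with a median log2 change of 1.58 against 0.02 over all tested genes. Among them were JAK1 (log2 2.67), IRF4 (2.39) and TYK2 (1.71). With IMP1088 4 rose and 10 fell at high MYC, where 10.5% of all tested genes rose and 16.3% fell. At medium MYC 4 rose and 7 fell, against 11.7% and 14.6% (26.3% in either direction). GBP1, an interferon-induced guanylate-binding protein, fell from 1431 to 387 normalized counts at medium MYC (log2 -1.89 ± 0.18 SE, limma adjusted p = 5.8e-08), while IRF4, a B cell factor that also acts downstream of NF-kappaB, rose from 10657 to 13131 (log2 0.30 ± 0.03 SE, adjusted p = 8.9e-09).

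Of 21 tested genes of the NF-kappaB and CD40 path, 16 were higher and 3 lower at medium than at high MYC in DMSO (38.9% and 37.3% of all tested genes), with a median log2 change of 1.25. TRAF1 (log2 4.28), TNFAIP3 (3.89), NFKB2 (3.25) and NFKBIA (2.72) had the smallest p-values. With IMP1088 3 rose and 5 fell at medium MYC, and 6 rose and 6 fell at high MYC, with the same shares of all tested genes as given for the interferon list. NFKBIA, the inhibitor that holds NF-kappaB in the cytoplasm, rose at medium MYC (log2 0.17 ± 0.04 SE, limma adjusted p = 0.0015).

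Every pair of tested members was correlated over the 16 libraries (r from 0.94 to 0.996 in 21 pairs), a description in which all points share the step between MYC levels. After the group means were removed, r ran from -0.54 to 0.65 with a median of 0.20. The genes most like CCL22 were ANKRD33B, KIF26B and IL1R2 (r = 0.999 each, over 16 libraries), among 259 of 10843 genes with r of at least 0.99. Those most like CXCL10 were NFKBIA, ZC3H12C and MAP3K8 (r = 0.996 each), and those most like CXCL9 were ZNF365, HCP5 and LINC01094 (r of at least 0.997 each). CCL5 was most like TNFRSF9, GABARAP and MARCKS (r from 0.996 to 0.997), CCL17 most like BCAS1, CCDC28B and MST1R (0.99 each), and CCL3 most like OTUD7B, ORMDL3 and IL4I1 (0.99 each). Genes with r of at least 0.99 numbered 100 for CXCL10, 138 for CXCL9, 69 for CCL5, 2 for CCL17 and 0 for CCL3.

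Other genes around the members moved in both directions. Within 100 kb of a member, a distance chosen after the data were seen, 17 tested genes other than members and copies were found. From high to medium MYC in DMSO 4 were higher, 6 were lower and 7 were not called, against 38.9% and 37.3% of all tested genes called higher and lower. CX3CL1, DOK4 and PLLP reached the limit only through medium MYC. Of the 4, CX3CL1, DOK4 and PLLP lie beside CCL22 and CCL17 on chromosome 16, where DOK4, an adaptor of receptor tyrosine kinases, went from 1.67 to 131 normalized counts and PLLP from 2.15 to 49.9. The fourth was PLD2, 67174 bases from CXCL16 (log2 1.28 ± 0.14 SE, limma adjusted p = 2.3e-08). Next to CXCL9, SDAD1 at 10313 bases was lower at medium MYC (log2 -0.74 ± 0.05 SE, limma adjusted p = 6.4e-12).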

How the data were processed

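RNA of 16 P493-6 libraries was sequenced. The authors deposited normalized counts, a non-negative signal per gene, as 1 table of 58051 identifiers. The submitters' processing notes name STAR 2.5.2a, RSEM 1.2.31, DESeq2 1.16.1 and GRCh38, without roles. The gene annotation and the use of strand are not given in the sources used here. Within each library 100% of values were whole multiples of 1 step (tolerance 0.001 reads), so reads were recovered. No molecular identifiers are mentioned, and the floor therefore covers counting error only. A group with at most 3 reads in every library is at the floor, and folds against it use 3 reads a library.

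Symbols came from a table of gene names (56948 matched). Positions and exon lengths (protein-coding transcripts) are those of GENCODE release 29, matched by identifier. limma 3.58.1 (R 4.3.3) was fitted to log2(value + 1) of 13765 genes with a mean of at least 10, with 4 group means over all 16 libraries, a mean trend and Benjamini-Hochberg adjustment at 0.05, two-sided. Fold changes of low genes are understated on this scale. SE and 95% intervals are those of limma and, like its p-values, rest on 1 spread per gene shared by the 4 groups. Those at medium MYC thus hold the spread of the high MYC libraries as well. Fold means the ratio of group means. The script was tested on simulated counts. Alternatives were edgeR 4.0.16 and DESeq2 1.42.0 on reads, other pseudocounts, filters and scalings, fits without each library, replicate blocks, and copies summed.

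The members, lists and tests were chosen with earlier results of these data known. Named genes are all members, MYC, copies, tested receptors and other ligands, up to 4 of each pathway list with the smallest p, and the 3 genes most correlated with each member (mean of at least 50). Some genes that this rule names are not reported here. The neighbouring genes were added later. The labels give no batch.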

Additional observations from a re-analysis of the deposited data

Results flagged for a closer look

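Among 42 groups of 4 libraries examined, 2 had a library that stood apart from its group by more than Dixon's 95% critical value, and chance alone gives this in about 1 in 20 groups. CCL17 in IMP1088 replicate 3 at medium MYC had 81.5 normalized counts, below the other 3 libraries of its group. CXCL9 in IMP1088 replicate 4 at high MYC had 2.08 normalized counts, which is 2 reads, where the other 3 libraries had none.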

How the results depend on the processing

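The 7 calls between MYC levels in each treatment kept their direction and side of the threshold under every alternative run. The exception was a filter at a mean of 100, where only 4 members were left to test, and were called, in each treatment. CCL5, CCL17, CXCL9 and CXCL10 reached the limit for testing only through the medium MYC libraries and had to differ. That their calls held is therefore a description and not a test. The count of members called with IMP1088 at medium MYC was 3. It was 1 with a pseudocount of 0.1, without a filter or without a mean trend. It was 5 with a pseudocount of 10 or DESeq2, 6 with edgeR or the compared groups only, and 1 to 2 without any 1 library. With copies summed CCL3 was called as well (log2 0.32, limma adjusted p = 0.0480). At high MYC the count was 0, and it was 1 with a filter at 100 or with copies summed, and 0 to 2 without any 1 library. For the difference in response it was 0, and 2 with copies summed. The causes were not tested. Changes near 0 changed sign: for CXCL10 the difference in response (0.024 on the log2 scale) was -0.032 with a pseudocount of 0.1, -0.026 with edgeR, -0.041 with DESeq2 and -0.20 to 0.17 without any 1 library, and for CXCL9, at the floor at high MYC, the change with IMP1088 (-0.065) was 0.0042 with a pseudocount of 10, 0.029 with edgeR, 0.030 with DESeq2 and -0.47 to 0.14 without any 1 library. Other scalings changed no member's call.

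The replicate numbers in the titles did not pair the libraries: same-numbered libraries deviated from their group means with a mean r of -0.07 to 0.02 over the 4 group pairs, and 0 or 1 of 4 libraries was most like its own number. With a replicate block 1 member (CXCL10, adjusted p = 0.0356) was called at high MYC, and 3468 genes in all. At medium MYC the block moved CCL22 to an adjusted p of 0.0716.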

Other observations

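Enzymes that cut chemokines were measured as well. ADAM10, the protease that releases CXCL16 from the membrane, was higher at medium than at high MYC in DMSO (log2 0.52 ± 0.06 SE, limma adjusted p = 2.3e-08). ADAM17 was lower (log2 -0.20 ± 0.04 SE, adjusted p = 8.1e-05) and rose with IMP1088 at medium MYC (log2 0.12 ± 0.04 SE, limma adjusted p = 0.0292). DPP4, which trims CXCL9, CXCL10 and CXCL11, averaged 9.54 to 15.9 normalized counts over the groups and was not called in any comparison.

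Of 16 genes for B cell receptor kinases and adaptors, several have myristoylated proteins. With IMP1088 13 of the 16 fell and none rose at high MYC, where 16.3% of all tested genes fell and 10.5% rose. At medium MYC 11 fell and none rose, against 14.6% and 11.7% of all tested genes. The median log2 change of the 16 was -0.28 and -0.27, beside -0.02 and -0.01 over all tested genes. PIK3AP1, an adaptor that carries receptor signals to PI3 kinase, fell at both levels (log2 -0.48 and -0.28, limma adjusted p = 5.2e-12 and 1.2e-08). LYN, a myristoylated kinase of the SRC family, fell at high MYC (log2 -0.45 ± 0.03 SE, limma adjusted p = 2.5e-10) and less at medium MYC (-0.11), and the difference was called (0.34, adjusted p = 8.2e-06).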
